A study of Mus musculus with 114 samples.

Results

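Retinoid handling genes were followed in the fat cells of mice on a control or a fat-rich diet. The set held 7 genes, Rbp4, Rbp7, Aldh1a1, Retsat, Dhrs3, Rara and Rarb, taken by symbol from the 29132 genes listed in the expression table, and all 7 were found. Of these, 6 were among the 10343 genes that passed a filter on low values (mean log2(CPM + 1) above 2 over all mice, CPM being read counts scaled to the same total in every mouse), and Rarb did not. RNA was sequenced from the floating adipocyte fraction of perigonadal fat, obtained by collagenase digestion, of male C57BL/6J mice that were 6 weeks old when the diets began. They received control chow (CD; D12450B or D12450K) or high fat diet (HFD; D12492) for 8, 20 or 34 weeks and were fasted before the tissue was taken. Each group had 6 mice except CD at 34 weeks, which had 8, for 38 mice in all, and each mouse was sequenced as 3 technical replicates that were merged into 1 profile. Only mice are replicates here, so the p-values measure the spread between these mice.

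Vitamin A reaches fat as retinol carried by RBP4 or as retinyl esters in lipoproteins, and fat cells both store it and secrete RBP4. Inside the cell, retinol is oxidised to retinaldehyde, which is either reduced back or oxidised irreversibly to retinoic acid. Retinoic acid binds RAR receptors, which sit on DNA with RXR partners and control genes, some of which encode the enzymes and receptors of the pathway itself.

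Rarb, which encodes the retinoic acid receptor beta, is the standard example of such feedback, and its promoter is shown because it carries the receptor's own binding motif. The sequence spans 250 bases before to 50 bases after the start of transcription (RefSeq, GRCm38.p6, chr14:16575427-16575726, minus strand), and capitals mark a direct repeat of a half-site with a spacer of 5 bases. A half-site was read as AGGTCA or as GGGTCA, and the forms AGTTCA and GGTTCA were also accepted. Both half-sites marked in Rarb are of these 2 further forms, and without them the repeat would not have been marked. The shares of promoters given below are therefore no independent measure of how rare the Rarb match is.
Rarb: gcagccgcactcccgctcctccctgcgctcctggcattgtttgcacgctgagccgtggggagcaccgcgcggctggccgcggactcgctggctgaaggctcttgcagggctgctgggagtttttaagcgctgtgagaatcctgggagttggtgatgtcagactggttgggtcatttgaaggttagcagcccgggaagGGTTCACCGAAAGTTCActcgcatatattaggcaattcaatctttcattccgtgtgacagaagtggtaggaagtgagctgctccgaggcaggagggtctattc
The match lay at chr14:16575513-16575529, between 53 and 37 bases upstream of the start, and read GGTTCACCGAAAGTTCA. Of 32851 promoters of 27025 genes searched on both strands, 32 (0.0974%) held such a repeat with a 5-base spacer, 88 (0.268%) one with a 2-base spacer and 73 (0.222%) one with a 1-base spacer. The 13 promoters listed for the other 6 genes held none of the 3 spacings, which says only that these letters were not in those windows.

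Depth ranged from 9275711 to 15480388 reads per mouse on the listed genes. At 8 weeks the HFD mice were sequenced more deeply than the CD mice, with no overlap (13201234 to 15480388 against 10562845 to 12611013 reads). All 9 adipocyte markers passed the filter, and their summed level had group medians between 24440 and 53130 CPM. No marker of epididymis, testis, T cells or B cells passed the filter. Of 10 macrophage markers, 7, 8 and 10 were called higher in HFD at 8, 20 and 34 weeks and none lower. Their summed level went from a median of 656 CPM (358 to 1739) in CD mice to 1895 CPM (1080 to 3134) in HFD mice at 8 weeks, from 1531 CPM (963 to 3348) to 6666 CPM (4513 to 9284) at 20 weeks, and from 3500 CPM (1149 to 12790) to 10760 CPM (5260 to 15730) at 34 weeks. At 20 weeks 6 of 9 adipocyte markers were called lower and 1 higher, and 7 of 9 endothelial, 7 of 8 tested progenitor and fibroblast and 4 of 6 mural markers were called higher. At 8 weeks 1 adipocyte marker was called lower and 1 higher, and 9 of 9 endothelial, 6 of 8 progenitor and fibroblast and 5 of 6 mural markers were called higher. At 34 weeks 8 of 9 adipocyte markers were called lower and none higher, and 7 of 9 endothelial, 5 of 8 progenitor and fibroblast and 3 of 6 mural markers were called higher. Of 3 tested mesothelial markers, 2 were called higher at 8 weeks, and none was called at 20 or 34 weeks. Bulk RNA cannot separate fewer cells of a type from less RNA per cell. The part of other cells in the results was not tested. For some values a fit with the macrophage marker mean as a covariate is given. The macrophage markers themselves differed by diet, with no overlap of their summed level at 20 weeks. A call lost or kept in that fit therefore cannot separate macrophage RNA from diet.

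Levels per length, from the CPM and the summed exon length of GENCODE vM21, gave the order of the genes. Rbp4 was by far the highest, at 382 CPM per kb over all mice, followed by Dhrs3 (59.9), Retsat (53.3) and Aldh1a1 (44.0). Rbp7 (8.23), Rara (3.47) and Rarb (0.475 CPM per kb) were much lower. The authors counted on an older annotation, so the lengths are approximate. Stra6, the cell-surface receptor for RBP4, had a read in 2 of 38 mice and Lrat, which makes retinyl esters from retinol, likewise in 2. A count of 0 allows a level of up to 0.194 CPM in the deepest mouse and 0.323 CPM in the shallowest (a limit of 3 reads, counting error only).

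Rbp4 (chr19:38116620-38125321), the secreted retinol carrier, was not called for diet at 8 weeks and was lower in HFD at 20 and 34 weeks. At 8 weeks, CD mice had 351, 501 and 529 CPM (lowest, median, highest) and HFD mice 457, 559 and 718 CPM. The groups overlapped, with 5 of 6 HFD mice above every CD mouse. The difference of 0.31 ± 0.30 (SE) on the log2 scale did not pass the test (adjusted p = 0.41). Each limma SE here and below rests on a spread shared by all 6 groups, which can differ from that of the groups compared. By 20 weeks, CD mice had 466, 664 and 862 CPM and HFD mice 128, 253 and 312 CPM, with every HFD mouse below every CD mouse. That is a 2.85-fold lower mean in HFD and a difference of -1.53 ± 0.30 (adjusted p = 6.16e-05).

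The gap in Rbp4 held at 34 weeks, when CD mice had 203, 788 and 1312 CPM and HFD mice 127, 186 and 415 CPM. Here 3 of 6 HFD mice lay below all CD mice, because CD mouse 5 had 203 CPM, the lowest of its group. The difference was -1.74 ± 0.28 (adjusted p = 3.69e-05). With the macrophage covariate the 20-week value was -0.65 (adjusted p = 0.105) and no longer called, the 34-week value was -1.07 (adjusted p = 0.0116), and the 8-week value was 0.85 and called (adjusted p = 0.0112).

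The diet difference in Rbp4 itself changed over time. It was 1.84 ± 0.43 lower at 20 than at 8 weeks (adjusted p = 0.0184) and 2.05 ± 0.41 lower at 34 than at 8 weeks (adjusted p = 4.69e-04), while its change from 20 to 34 weeks did not pass (-0.20 ± 0.41, adjusted p = 0.786). In HFD mice Rbp4 fell from 8 to 20 weeks by 1.36 ± 0.30 (adjusted p = 9.53e-04), which the covariate fit put at -0.61 (adjusted p = 0.228). In CD mice the change from 8 to 34 weeks was 0.58 ± 0.28 (adjusted p = 0.0702), and without CD mouse 5 it was 0.83 (adjusted p = 0.00231).

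Rbp7 (chr4:149449687-149466462), an intracellular retinol-binding protein, was low, with only 6.74% of the tested genes at a lower mean. At 8 weeks CD mice had 1.33, 1.77 and 14.3 CPM and HFD mice 3.94, 9.45 and 16.7 CPM. The single high CD value, 14.3 CPM in mouse 4, lay among the HFD values, so the groups overlapped and only 1 HFD mouse exceeded every CD mouse. Rbp7 rose by 1.23 ± 0.44 (adjusted p = 0.0228), but edgeR on the recovered reads gave 1.15 (adjusted p = 0.0873) and DESeq2 1.15 (adjusted p = 0.0668), and the covariate fit 1.01 (adjusted p = 0.0979). The Rbp7 difference was 0.49 ± 0.44 at 20 weeks (adjusted p = 0.35) and -0.02 ± 0.41 at 34 weeks (adjusted p = 0.978). All 9 endothelial markers were called higher in HFD at 8 weeks, with a summed level of 32.0 to 313 CPM in CD and 94.3 to 478 CPM in HFD mice. At 20 and at 34 weeks 7 of the 9 were called higher, and their part in the Rbp7 values was not tested.

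Retsat (chr6:72598602-72607488), which saturates a double bond of retinol and is a known marker of mature fat cells, was lower in HFD at all 3 times. CD mice had 191, 270 and 299 CPM at 8 weeks and HFD mice 149, 181 and 253 CPM, and 5 of 6 HFD mice were below all CD mice. The difference was -0.46 ± 0.17 (adjusted p = 0.0252), and the call was lost without CD mouse 3 or HFD mouse 6. At 20 weeks the values were 199, 241 and 314 CPM in CD and 121, 130 and 243 CPM in HFD, with HFD mouse 4 alone (243 CPM) above the lowest CD values.

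The fall in Retsat was -0.72 ± 0.17 at 20 weeks (adjusted p = 4.89e-04). At 34 weeks no HFD mouse reached the CD range: CD mice had 150, 197 and 222 CPM and HFD mice 70.0, 107 and 142 CPM, a difference of -0.86 ± 0.16 (adjusted p = 1.12e-04) and a 1.78-fold lower mean. In the covariate fit the 8-week value was -0.33 (adjusted p = 0.147), the 20-week value -0.51 (adjusted p = 0.0644) and the 34-week value -0.71 (adjusted p = 0.0156). Retsat also fell with time in both diets, by 0.46 ± 0.16 from 8 to 34 weeks in CD (adjusted p = 0.0102) and by 0.87 ± 0.17 in HFD (adjusted p = 7.95e-05), and no change of its diet difference between times passed (adjusted p = 0.182 to 0.714). The CD change was -0.26 in the covariate fit (adjusted p = 0.267).

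Dhrs3 (chr4:144892534-144928209), which reduces retinaldehyde back to retinol and is induced by retinoic acid, was higher in HFD at each time. CD mice had 74.5, 86.0 and 113 CPM at 8 weeks against 127, 139 and 165 CPM in HFD, with no overlap, a difference of 0.67 ± 0.17 (adjusted p = 0.00209). At 20 weeks CD mice had 47.4, 64.3 and 76.8 CPM and HFD mice 136, 177 and 216 CPM. Again every HFD mouse was above every CD mouse, and the mean was 2.79-fold higher (1.46 ± 0.17, adjusted p = 4.73e-08).

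At 34 weeks CD mice had 146, 213 and 362 CPM, above their 20-week range, against 249, 310 and 476 CPM in HFD. The groups overlapped, and Dhrs3 was higher in HFD by 0.57 ± 0.16 (adjusted p = 0.00445; 0.0543 with the 34-week mice fitted alone). Its diet difference grew by 0.80 ± 0.24 from 8 to 20 weeks (adjusted p = 0.0473), a call that most alternatives lost (0.0570 with TMM factors). It shrank from 20 to 34 weeks by 0.89 ± 0.23 (adjusted p = 0.0120). Dhrs3 rose in CD mice from 20 to 34 weeks by 1.75 ± 0.16 (adjusted p = 9.06e-11), and in HFD mice by 0.86 ± 0.17 (adjusted p = 4.38e-04). With the macrophage covariate the 8- and 20-week differences were 0.42 (adjusted p = 0.0401) and 1.05 (adjusted p = 1.34e-04), and the 34-week difference was 0.26 (adjusted p = 0.35) and not called.

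Rara (chr11:98927800-98974942), the retinoic acid receptor alpha, resembled Dhrs3 in direction at a far lower level. At 8 weeks CD mice had 5.90, 8.33 and 8.95 CPM and HFD mice 11.1, 14.2 and 19.3 CPM, without overlap, a difference of 0.82 ± 0.22 (adjusted p = 0.00359). At 20 weeks the values were 2.94, 7.11 and 12.9 CPM in CD and 17.9, 22.3 and 26.2 CPM in HFD, a 3.01-fold higher mean with no overlap (1.55 ± 0.22, adjusted p = 8.97e-07). At 34 weeks the ranges overlapped (8.53 to 25.7 CPM in CD, 13.7 to 29.1 CPM in HFD), and the difference of 0.40 ± 0.21 missed the threshold (adjusted p = 0.115).

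The 34-week diet difference in Rara was 1.15 ± 0.31 smaller than that at 20 weeks (adjusted p = 0.0146). Rara rose in CD mice from 20 to 34 weeks by 1.06 ± 0.21 (adjusted p = 5.70e-05), with a group median of 16.3 CPM at 34 weeks. With the macrophage covariate the 20-week difference was 0.81 (adjusted p = 0.00327) and stayed called, while the 8-week one was 0.37 (adjusted p = 0.0919). In HFD mice the change from 8 to 20 weeks was 0.58 ± 0.22 (adjusted p = 0.0398), a call lost in the covariate fit (-0.05) and without any of 8 mice.

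Rarb (chr14:16430839-17082331), the receptor whose promoter is printed above, was low in every mouse, with 3 to 78 reads each. CD mice had 0.258, 0.838 and 1.30 CPM at 8 weeks and HFD mice 1.14, 1.68 and 2.14 CPM, and 5 of 6 HFD mice lay above every CD mouse. The difference in mean log2(CPM + 1) was 0.61 (exact permutation test over mice, two-sided, p = 0.00433, adjusted over the 3 times p = 0.00649). At 20 weeks CD mice had 0.454, 1.03 and 1.61 CPM and HFD mice 2.56, 3.37 and 4.01 CPM, a 3.42-fold higher mean with no overlap, and the difference was 1.16 (exact permutation p = 0.00216, the smallest possible here, adjusted p = 0.00649).

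At 34 weeks Rarb was 0.677, 2.94 and 5.68 CPM in CD and 3.24, 4.46 and 7.28 CPM in HFD. The difference of 0.58 did not pass (exact permutation p = 0.0753), though leaving out CD mouse 1 or 7 gave exact p = 0.0367 and 0.0326. With the looser filter Rarb entered the limma fit, with adjusted p = 0.0276, 5.93e-05 and 0.0268 at the 3 times, the 34-week difference being called there. Rarb was also higher at 34 than at 8 weeks in CD mice in that fit, by 1.10 ± 0.21 (adjusted p = 4.64e-05). Age and weeks on the diet cannot be told apart here.

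Aldh1a1 (chr19:20492583-20643463), which oxidises retinaldehyde to retinoic acid, did not pass the test for diet at any time. The differences were 0.13 ± 0.21, -0.08 ± 0.21 and -0.31 ± 0.19 at 8, 20 and 34 weeks (adjusted p = 0.615, 0.768 and 0.189). At 34 weeks the HFD mice had 117 to 132 CPM in 4 mice and 277 and 328 CPM in mice 1 and 6, against 101, 221 and 292 CPM (lowest, median, highest) in CD. Leaving out HFD mouse 6 gave a difference of -0.50 (adjusted p = 0.0215), and leaving out CD mouse 5 gave -0.46 (adjusted p = 0.0252). In HFD mice Aldh1a1 fell from 8 to 34 weeks by 0.63 ± 0.21 (adjusted p = 0.0104), which the covariate fit put at -0.13. Aldh1a7 is a close relative whose reads could be shared with Aldh1a1, so the split between them is uncertain.

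**Figure D1:**
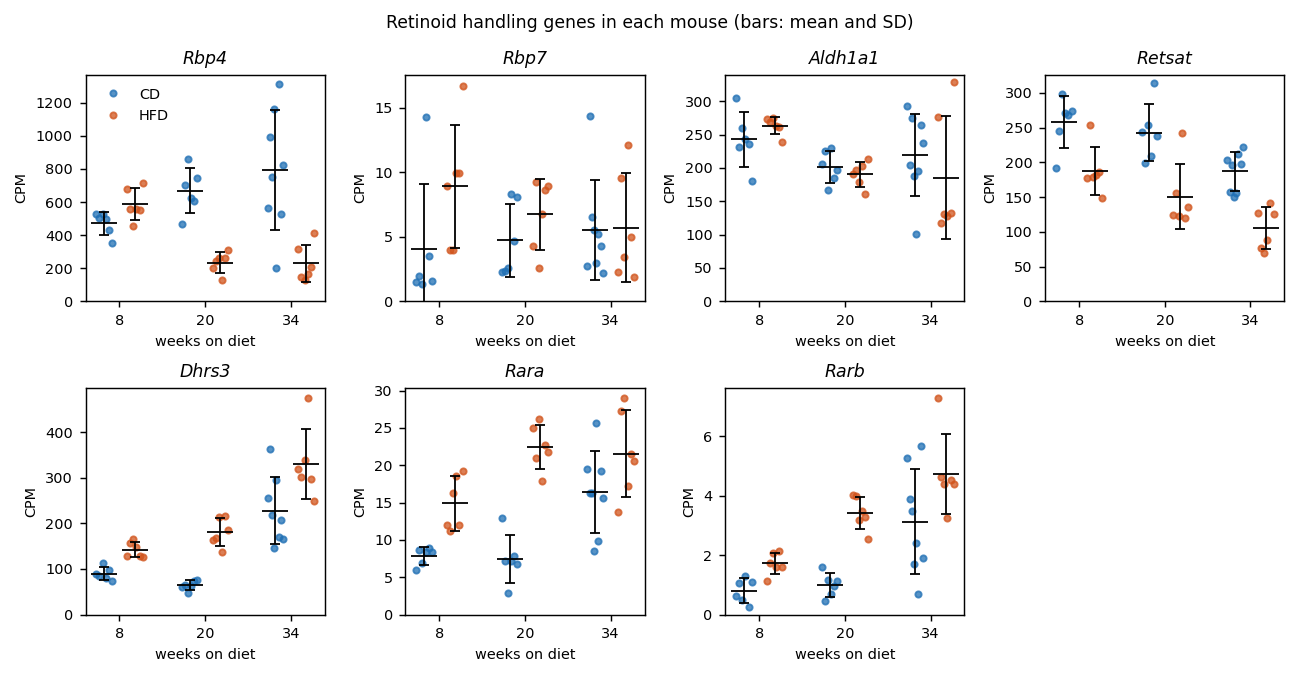
CPM of each gene in each mouse by weeks on diet, blue for CD and orange for HFD, with the mean and SD of each group as bars, and the lower end of the Rbp7 bar for CD at 8 weeks cut at 0. Rbp4 falls below every CD mouse in HFD at 20 weeks, while Dhrs3, Rara and Rarb lie above every CD mouse there.

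In total, 4 of the 6 tested genes were called at 8 weeks, 4 at 20 weeks and 3 at 34 weeks, each at an adjusted p under 0.05. The shares of all genes tested that were called were 44.9%, 57.0% and 43.2%, so the counts were not far from the background. At 8 weeks 3 genes were higher and 1 lower (background 29.8% higher and 15.1% lower), at 20 weeks 2 and 2 (38.3% and 18.7%), and at 34 weeks 1 and 2 (27.5% and 15.7%). The median difference over the 6 genes was 0.49, 0.21 and -0.16 on the log2 scale, against 0.11, 0.14 and 0.07 over all genes tested. Diets did not overlap in 2, 3 and 1 of the 6 genes, against 22.8%, 37.2% and 2.46% of all genes tested.

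Scaling moved the all-gene median: with TMM factors it was 0.01, -0.07 and -0.01, a shift of up to about 0.2 at 20 weeks, and the split of all called genes went from 3957 higher and 1937 lower to 2718 and 3356 at that time. The diet calls of the 6 genes and their directions were the same under TMM and median-of-ratios scaling.

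**Figure D2:**
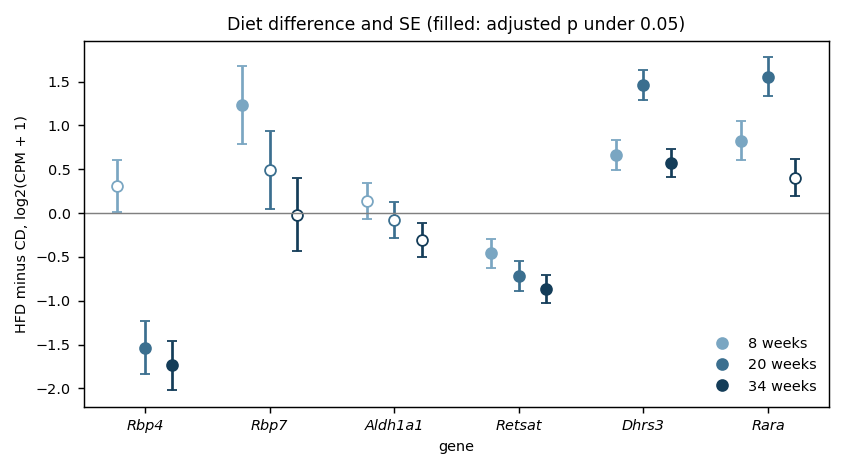
HFD minus CD difference in mean log2(CPM + 1) with its SE for the 6 tested genes at 8, 20 and 34 weeks, filled where the adjusted p was under 0.05. Retsat is below 0 and Dhrs3 above 0 at all 3 times, and Rbp4 drops from 0.31 at 8 weeks to -1.74 at 34 weeks.

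Changes with time gave the other counts. Diet differences changed for 2 genes between 8 and 20 weeks (4.49% of all genes tested), 2 between 20 and 34 (10.5%) and 1 between 8 and 34 weeks (28.8%). In CD mice no gene of the 6 was called between 8 and 20 weeks by limma (3.58% of all genes), where only Dhrs3 had an unadjusted p under 0.05 (-0.47, adjusted p = 0.119) and edgeR and DESeq2 also called 0, while 3 were called between 20 and 34 weeks (62.5%) and 3 between 8 and 34 weeks (64.7%). In HFD mice the counts were 2 (36.5%), 2 (30.2%) and 4 (52.5%).

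The rest of the pathway was read from lists of genes for each step. Of 49 listed genes outside the 7, 23 passed the filter, and 6 were higher and 4 lower at 8 weeks, 9 and 8 at 20 weeks, and 3 and 8 at 34 weeks. Over all genes tested 29.8% were higher and 15.1% lower at 8 weeks, 38.3% and 18.7% at 20 weeks, and 27.5% and 15.7% at 34 weeks. The totals of 10 of 23 called at 8 weeks and 11 of 23 at 34 weeks were near the background of 44.9% and 43.2%. At 20 weeks only 6 of 23 were not called, so the share called was above the background of 57.0%. At 34 weeks the split differed from the background, with 8 of 23 lower and 3 of 23 higher. In retinyl ester storage and release, all 4 tested genes fell at 20 weeks, none rose, and 3 of 4 fell at 34 weeks, against 18.7% and 15.7% of all genes tested. Of the 9 adipocyte markers, 6 were lower at 20 weeks and 8 at 34 weeks, and their part in this was not tested. Lipe is in both lists, so the lists are not separate. Dgat1, which esterifies retinol as well as diacylglycerol, differed by -1.43 ± 0.19 at 20 weeks (adjusted p = 3.72e-07), and the lipases Pnpla2 (-0.82 ± 0.21, adjusted p = 0.00112) and Lipe (-0.53 ± 0.18, adjusted p = 0.0115) were also lower.

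Among enzymes that interconvert retinol and retinaldehyde, 10 of 18 were tested, including Retsat and Dhrs3. At 20 weeks 5 were higher and 2 lower, against 38.3% and 18.7% of all genes tested, so these counts were not far from the background. Dhrs9, a retinol dehydrogenase, rose most, from 4.04 ± 5.16 to 50.5 ± 15.3 CPM (mean ± SD), a difference of 3.73 ± 0.54 (adjusted p = 1.08e-06). Rdh11 rose by 1.09 ± 0.17 (adjusted p = 2.84e-06).

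Of the 3 aldehyde dehydrogenases tested, Aldh1a2, which makes retinoic acid, was higher in HFD by 1.32 ± 0.28 at 8 weeks (adjusted p = 3.96e-04) and 0.92 ± 0.28 at 20 weeks (adjusted p = 0.0057). Aldh1a7, a relative of Aldh1a1 not known for oxidising retinaldehyde, was higher by 0.92 ± 0.28 at 8 weeks (adjusted p = 0.00865). At 34 weeks none of the 3 was called, with Aldh1a2 at 0.05 ± 0.26 (adjusted p = 0.892) and Aldh1a7 at -0.51 ± 0.26 (adjusted p = 0.114), and the diet difference was lower at 34 than at 8 weeks for both (-1.27 ± 0.38, adjusted p = 0.0125, and -1.43 ± 0.38, adjusted p = 0.00581). None of the 3 Cyp26 enzymes that break retinoic acid down passed the filter. Among receptors, Rxra, the partner of RAR, was lower at each time (-0.40, -0.52 and -0.38 at 8, 20 and 34 weeks), while Rarg rose at 20 weeks by 0.75 ± 0.13 (adjusted p = 7.99e-06) and was 0.04 ± 0.12 apart at 34 weeks (adjusted p = 0.806). Ppard fell at 20 weeks by 1.01 ± 0.16 (adjusted p = 3.70e-06), and Fabp5, which can carry retinoic acid to PPAR delta, rose by 2.13 ± 0.26 (adjusted p = 1.12e-07). At 34 weeks Fabp5 was at -0.13 ± 0.24 (adjusted p = 0.681), with 487 CPM on average in CD and 447 CPM in HFD mice, and its diet difference changed from 20 to 34 weeks by -2.26 ± 0.36 (adjusted p = 2.49e-04). Of 11 listed target genes 3 were tested, and all were higher at 20 weeks: Dhrs3, Tgm2 (0.78 ± 0.24, adjusted p = 0.00522) and Rarres2 (0.91 ± 0.22, adjusted p = 6.40e-04). At 34 weeks only Dhrs3 of the 3 was called, with Tgm2 at 0.06 ± 0.22 (adjusted p = 0.844) and Rarres2 at -0.30 ± 0.20 (adjusted p = 0.225), and the diet difference was lower at 34 than at 20 weeks for Dhrs3 and for Rarres2 (-1.22 ± 0.30, adjusted p = 0.00893). Scarb1, which takes up carotenoids, was 0.10 ± 0.16 apart at 20 weeks (adjusted p = 0.605).

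**Figure D3:**
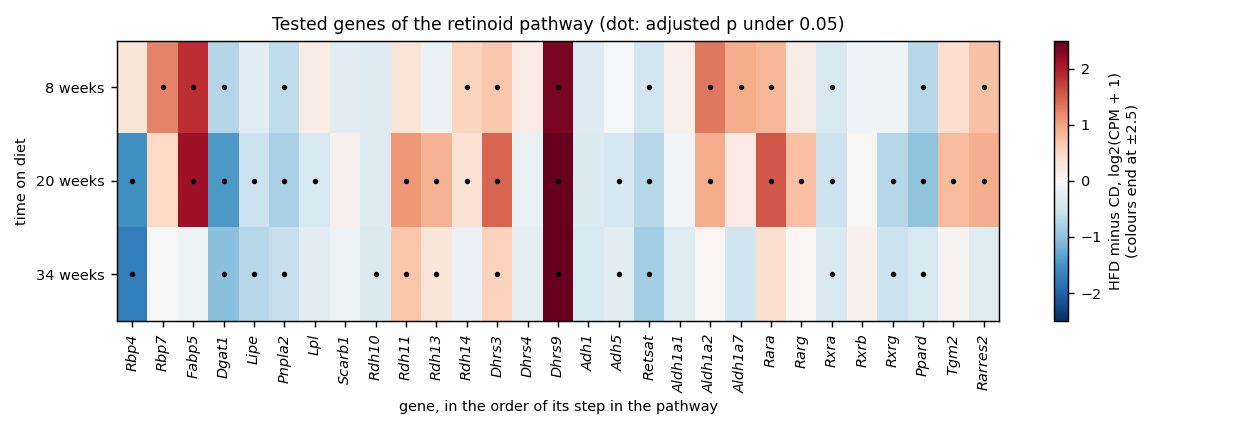
HFD minus CD difference in log2(CPM + 1) for the 29 tested pathway genes at the 3 times, red for higher and blue for lower in HFD, with a dot where the adjusted p was under 0.05 and colours ending at 2.5. Dgat1, Lipe and Pnpla2, from the storage and release list, are blue throughout, and Dhrs9 exceeds the colour scale at 20 and 34 weeks.

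Deviations of each mouse from its group mean showed which genes moved with each gene within groups, over 38 mice. For Rbp7 the closest were Btnl9 (Pearson r = 0.86, Spearman rho = 0.81), Ushbp1 (r = 0.85) and Cd300lg (r = 0.85), and the mean of the endothelial markers had r = 0.78 and that of the erythroid markers r = 0.75. Of the 2 erythroid markers tested, 1 was also called higher in HFD at 8 weeks. Rara went with Ppp1r18 (r = 0.87), Ptpre (r = 0.86) and Lfng (r = 0.86), and with the means of the macrophage (r = 0.72), progenitor and fibroblast (r = 0.68) and mural markers (r = 0.66). For Rbp4 they were Gsta3 (r = 0.91), Phgdh (r = 0.88) and Cib2 (r = 0.87), for Aldh1a1 St3gal3, Snrpn and Setd3 (r = 0.86 to 0.87), for Retsat Acad11 (r = 0.85), Ephx2 (r = 0.81) and Fah (r = 0.80), and for Dhrs3 Twf2, Ppt2 and Mkrn1 (r = 0.82 to 0.83). Rbp4, Aldh1a1 and Retsat followed the adipocyte marker mean (r = 0.70, 0.74 and 0.57), and Dhrs3 and Rara ran against it (r = -0.44 and -0.52). Other marker means came as close. Rbp4 had r = 0.74 with the hepatocyte and -0.71 with the B cell markers, and Aldh1a1 0.67 with the hepatocyte markers. Of these markers only 1, of hepatocytes, passed the filter. Retsat had r = -0.58 with the progenitor and fibroblast markers, and Dhrs3 0.53 with the macrophage markers. These are descriptions over genes that share libraries.

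**Figure D4:**
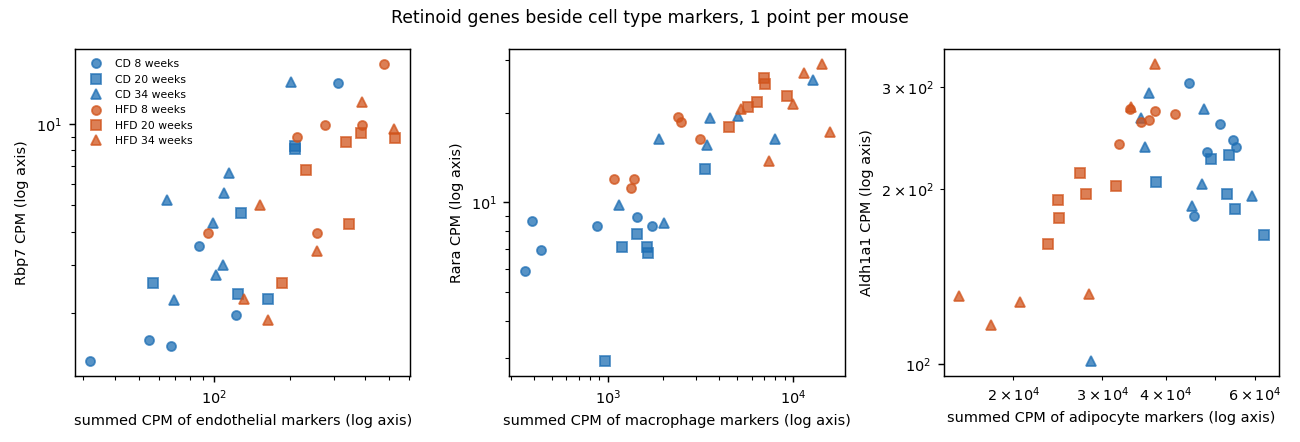
Level of Rbp7, Rara and Aldh1a1 in each mouse against the summed CPM of endothelial, macrophage and adipocyte markers, both on log axes, with colour for diet and shape for weeks. Rara runs with the macrophage sum in both diets, and CD mouse 5 at 34 weeks (25.7 CPM) lies among the HFD mice.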

How the data were processed

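Values were CPM, deposited by the authors in 1 table. Per the labels and methods, STAR aligned the reads (mm10) and featureCounts counted them over the exons of GENCODE vM2. TMM normalisation is described, but every column has the same total. The 3 technical replicates of a mouse were merged. Whole reads were recovered for 100% of values (tolerance 0.1 reads). Genes with mean log2(CPM + 1) above 2 were tested with limma 3.58.1 (all 6 groups in 1 fit, trended empirical Bayes, Benjamini-Hochberg over 10343 genes, threshold 0.05, two-sided, pseudocount 1, 32 residual df). The macrophage covariate is the mean log2(CPM + 1) of 10 markers. Rarb, under the filter, had an exact permutation test over mice. edgeR 4.0.16 on the recovered reads called 4555, 5823 and 4314 genes for diet at 8, 20 and 34 weeks, and DESeq2 1.42.0 was also run. With the mice of each time fitted alone, limma called 5718, 6718 and 2457 genes, against 4648, 5894 and 4468 in the main fit. The limma fit was tested on simulated counts. All members are reported, with at most 3 genes of each pathway list by size at 20 weeks and the 3 genes nearest each member. The members and lists were chosen with earlier results of these data known.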

Additional observations from a re-analysis of the deposited data

Results flagged for a closer look

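In 42 sets of 1 gene in 1 group, 4 mice stood apart from their group, and chance alone gives about 1 in 20 such sets. They were CD mouse 4 at 8 weeks for Rbp7 (14.3 CPM), HFD mouse 6 at 8 weeks for Aldh1a1 (239 CPM), CD mouse 5 at 34 weeks for Aldh1a1 (101 CPM) and HFD mouse 4 at 20 weeks for Retsat (243 CPM). CD mouse 5 at 34 weeks also had the lowest Rbp4 of its group (203 CPM), the highest Rara (25.7 CPM), the lowest summed adipocyte markers (28530 CPM) and the highest summed macrophage markers (12790 CPM), whose part in the result was not tested.

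The diet difference changed with time in 5 of 18 tests of the difference itself, which are not independent. Over all genes tested 4.49% were called at 20 against 8 weeks, 10.5% at 34 against 20 and 28.8% at 34 against 8. The diet difference was lower by 1.84 (Rbp4, 20 against 8 weeks, value -1.84) and by 2.05 (Rbp4, 34 against 8 weeks, value -2.05). It was larger by 0.80 for Dhrs3 at 20 against 8 weeks, a call lost in 23 of 38 fits that left out 1 mouse. It was smaller for Dhrs3 at 34 against 20 weeks (-0.89) and smaller for Rara at 34 against 20 weeks (-1.15).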

How the results depend on the processing

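The diet directions of the called genes held under every alternative, and the 20-week count of 4 held in all but the macrophage covariate fit, which gave 2, as it did at 8 weeks. Calls over all genes also fell in that fit, from 4648 to 3773 at 8 weeks, 5894 to 2865 at 20 and 4468 to 686 at 34 weeks. The drop from 4 to 2 at 20 weeks was near that of all genes, which does not hold for the other times. At 8 weeks Rbp7, Retsat and Rara lost their calls in that fit, Dhrs3 kept its call and Rbp4 gained one. At 34 weeks Rbp4 and Retsat kept their calls and Dhrs3 lost its call. That fit gave 2 members called in CD mice between 8 and 20 weeks, 0 in HFD mice between 8 and 20 weeks and 2 between 8 and 34 weeks, and 1 for the change of diet difference from 8 to 20 weeks. That last count was also 1 with TMM factors, median-of-ratios factors, no filter, edgeR and edgeR with TMM factors, the last chosen after seeing the data. With mouse number as a replicate block it was 1 as well. The block and no filter each left 1 in HFD mice between 8 and 20 weeks. Correlations between the deviations of same-numbered mice had both signs (-0.51 to 0.53). They do not settle whether the numbers pair the mice, which the labels do not state. With mice left out in turn, members called ranged from 2 to 4 at 8 weeks, 4 to 4 at 20, 3 to 5 at 34, 1 to 3, 2 to 2 and 1 to 2 for the changes of diet difference, 0 to 0, 2 to 3 and 3 to 4 in CD, and 1 to 3, 1 to 2 and 4 to 5 in HFD; the Rarb tests that passed ranged from 2 to 3. The Rbp7 call at 8 weeks was lost without CD mouse 1, 3 or 6 or HFD mouse 6, and that of Dhrs3 for 20 against 8 weeks without 23 mice. Without CD mouse 5 the 34-week difference was -0.46 in Aldh1a1 and 0.50 in Rara, both then called, and without HFD mouse 1 that of Rara was 0.52 and called. Signs turned for values that were not called: Rbp7 at 34 weeks was 0.063 by edgeR and 0.057 by DESeq2 and -0.26 to 0.19 with mice left out, and under the covariate Aldh1a1 was 0.38 at 20 and 0.029 at 34 weeks and Rara -0.16 at 34 weeks; Rara in HFD from 8 to 20 weeks, called, turned to -0.047. The causes were not tested. Depth limits Rarb, with as few as 3 reads.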
